A study of Mus musculus with 6 samples.

Results

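The hnRNP and SR splicing factors were taken as all rows of the expression table whose gene name starts with Hnrnp or Srsf. There were 31 such genes, 20 hnRNP and 11 SR, among 21995 rows, and all 31 passed the filter on low values that left 13175 rows for the test. In P6 mouse retina their transcripts were abundant, none passed the test of Lhx4 null against control retinas, and the widest differences lay between mice of the same group. Hnrnph1 spanned 429 to 5297 FPKM among 3 controls. In both groups 21 of the 31 genes were higher in the mouse numbered 3 than in the other mice of that group. The same held for 25.9% of all tested rows and 36.7% of those averaging 50 FPKM or more. The count of 21 ran from 16 to 21 when the libraries were scaled in other ways.

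Pre-mRNA is bound as it is made by heterogeneous nuclear ribonucleoproteins (hnRNPs), a loose set of RNA-binding proteins that package transcripts and often repress the use of nearby splice sites. SR proteins, which carry RNA recognition motifs and a domain rich in arginine and serine, mostly promote exon inclusion when bound within exons and help to recruit the spliceosome. Both sets act on transcripts in every cell type, and many of them limit their own level by splicing in an exon that sends the transcript to nonsense-mediated decay. In the developing nervous system the balance among such regulators sets the neuronal exons that postmitotic cells use.

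Retinas came from mice of a mixed C57BL/6J and 129S6 background at P6 (postnatal day 6), with 3 control and 3 Lhx4 null animals and a library for each mouse. Control is the only genotype the labels give for the first group, while the study's electroretinogram controls were wild type or Lhx4 loxP/+. Null animals were Lhx4 tdT/loxP; Six3-Cre, with a tdTomato knock-in on one allele and retinal Cre acting on the other, so that deletion was not limited to bipolar cells. The question was which genes change when this LIM-homeodomain factor of bipolar cells is missing.

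Values were FPKM (a gene's fragments scaled to its length and to library size), which summed to between 386567 and 429668 per library and do not keep the reads behind each value. Lhx4 itself stood at 18.0 to 19.3 FPKM in controls and 25.8 to 28.3 FPKM in null-labelled libraries, but gene-level FPKM pools deleted and remaining exons, so it does not check the labels. Both libraries numbered 3 stood apart. All 15 progenitor and cell cycle markers were above both other libraries of their group in control 3 and null 3, with sums of 586 and 521 FPKM against 225 to 282 FPKM in the other 4 libraries. All 13 rod markers were below both others, with sums of 2291 and 2559 FPKM against 3545 to 4753 FPKM, and so were 11 of 12 bipolar markers. No marker of these 3 lists was at 0 in all libraries. Pigment epithelium markers summed to between 8.74 and 29.8 FPKM, with Rpe65, Tyr and Best1 under the filter, and were highest in control 3 (25.6) and null 3 (29.8), where 4 of 5 tested pigment epithelium and 3 of 4 tested lens markers were also above both others.

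The sequence just upstream of the start site is shown for 6 of the genes, chosen to set Hnrnph1 beside 3 genes that were higher in the libraries numbered 3 (Hnrnpa0, Hnrnpa1, Srsf2) and a pair that was not (Hnrnpu, Hnrnpul1). Each window holds the 150 bases before the most upstream RefSeq start on GRCm38.p6, written 5′ to 3′ on the strand of the gene, and holds no exon annotated on either strand. Capitals mark matches on either strand to a GC box, a CCAAT box or a TATA box, whose letters follow with their counts.
Hnrnph1, chr11:50376840-50376989, plus strand: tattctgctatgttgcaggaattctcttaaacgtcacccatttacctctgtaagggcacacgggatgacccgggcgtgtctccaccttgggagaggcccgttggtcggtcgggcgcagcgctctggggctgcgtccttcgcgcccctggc
Hnrnpa0, chr13:58128557-58128706, minus strand: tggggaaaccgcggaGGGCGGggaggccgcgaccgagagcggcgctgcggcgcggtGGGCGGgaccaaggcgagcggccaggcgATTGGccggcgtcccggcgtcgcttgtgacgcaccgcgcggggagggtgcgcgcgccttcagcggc
Hnrnpa1, chr15:103240247-103240396, plus strand: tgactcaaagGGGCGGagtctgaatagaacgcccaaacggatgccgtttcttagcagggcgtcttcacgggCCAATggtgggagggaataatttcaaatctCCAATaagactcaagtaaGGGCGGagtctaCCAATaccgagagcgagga
Srsf2, chr11:116853095-116853244, minus strand: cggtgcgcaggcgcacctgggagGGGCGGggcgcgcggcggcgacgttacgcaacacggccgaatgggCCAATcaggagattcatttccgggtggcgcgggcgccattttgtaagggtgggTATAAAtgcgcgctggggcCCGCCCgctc
Hnrnpu, chr1:178337816-178337965, minus strand: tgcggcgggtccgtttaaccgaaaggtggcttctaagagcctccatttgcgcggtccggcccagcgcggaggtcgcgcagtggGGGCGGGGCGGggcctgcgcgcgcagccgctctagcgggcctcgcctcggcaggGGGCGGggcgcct
Hnrnpul1, chr7:25754760-25754909, minus strand: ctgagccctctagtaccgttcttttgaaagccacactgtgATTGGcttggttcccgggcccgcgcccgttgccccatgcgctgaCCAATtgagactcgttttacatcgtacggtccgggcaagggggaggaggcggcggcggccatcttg

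RefSeq gave a start for 29 of the 31 genes (Hnrnpll and Hnrnpul2 had no entry). Of these 29 windows, 11 held no exon annotated on either strand. The others held an exon of the gene itself, as for Hnrnpl, or of another gene, so the counts below include transcribed sequence. Windows of all genes were not checked for exons. A GC box (GGGCGG) lay in the window of 18 of 29 genes (62.1%) and in 29.0% of 27025 windows of all genes, and a CCAAT box lay in 14 (48.3%) against 25.3%. The TATA box (TATAAA) was rare in both, in 2 of 29 genes (6.90%) and 8.08% of all windows. An ETS motif (CCGGAAG) was found in 3 genes (10.3%) and 5.69% of all windows, with its match in Srsf5 sharing bases with a GC box, and a cAMP response element (TGACGTCA) in none, against 1.42% of all. CG dinucleotides numbered 3 to 28 per window with a median of 15, against 4 over all genes, whose windows also include genes silent in the retina. The Hnrnph1 window held none of these motifs and 12 CG dinucleotides. Windows of genes higher in the libraries numbered 3 and of those that were not both included GC boxes, as Hnrnpa0 and Hnrnpu show.

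Members differed widely in level. Of the 31, 19 had a mean of at least 100 FPKM and 27 lay among the top 10% of tested rows, against a median of 11.4 FPKM over all tested rows. Hnrnph1 and Hnrnpa2b1 had the highest means (1997 and 1034 FPKM), followed by Hnrnpk (450.0 FPKM), Hnrnpa1 (430.0 FPKM) and Srsf5 (393 FPKM). The order of the last 3 was within their spread, since Hnrnpa1 ranged from 377 to 545 FPKM, Hnrnpk from 404 to 515 FPKM and Srsf5 from 364 to 442 FPKM. Srsf12, a paralogue of Srsf10, was the lowest at 8.51 FPKM and stood in the 41.6th percentile of tested rows. The next lowest, Srsf4, had a mean of 28.7 FPKM.

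**Figure D1:**
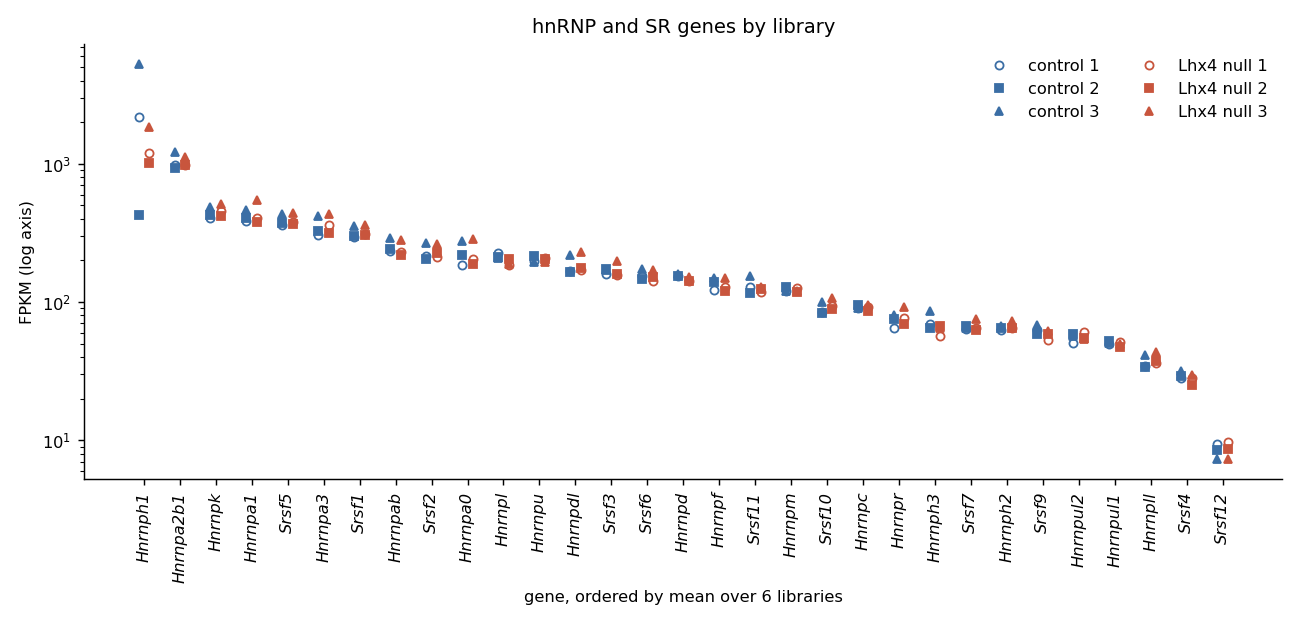
FPKM (log axis) of the 31 hnRNP and SR genes in each of the 6 libraries, ordered by mean, with controls in blue and Lhx4 nulls in red and the symbol giving the library number. Points of a gene lie close together except for Hnrnph1, which spans 429 to 5297 FPKM in controls.

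Hnrnph1 encodes an hnRNP that binds runs of G and can enhance or silence exons. Its FPKM was 2198, 429 and 5297 in controls 1 to 3 and 1189, 1020.5 and 1851 in nulls 1 to 3. Control 3 was 12.3 times and control 1 was 5.12 times control 2, whereas null 3 was 1.81 times null 2, and all 3 nulls lay inside the control range. The group means were 2641 ± 2464 FPKM (SD, n = 3) in controls and 1353 ± 439 FPKM (SD, n = 3) in nulls. On the log2(FPKM + 0.5) scale the difference between null and control was -0.38, with a 95% interval from -2.28 to 1.51 (0.207 to 2.84-fold), and did not pass (limma, BH-adjusted p = 0.945). Blocking by library number gave an interval from -1.39 to 0.62 (limma, BH-adjusted p = 0.731). Leaving out control 2 moved the difference to -1.38, leaving out control 3 turned it to 0.43, leaving out both libraries numbered 3 to 0.18 and weighting the libraries to 0.21.

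The spread of Hnrnph1 was among the widest in the table. Among controls the SD of its log2 values was 1.84, exceeded by 28 of 13175 tested rows, against a median of 0.16 over all rows and 0.14 over the other 30 members. Among the 1479 rows averaging 50 FPKM or more, it ranked second by the ratio of the highest to the lowest control, behind Y-linked Eif2s3y. Both libraries numbered 2 had almost no Eif2s3y (0.129 and 0.0166 FPKM, against 58.6 to 86.8 FPKM elsewhere), and Hnrnph1 was lowest in the same library of each group. The part of sex in the Hnrnph1 values was not tested. Hnrnph1 made up 0.549%, 0.104% and 1.23% of summed FPKM in controls 1 to 3 and 0.304%, 0.264% and 0.432% in nulls 1 to 3. In no other member did the highest control exceed the lowest by more than 1.48 times, or the highest null the lowest by more than 1.53 times.

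The gene lies at chr11:50376990-50386528 on the plus strand of GRCm38 and overlaps no other annotated gene. GENCODE M21 gives it 18 transcripts, the shortest of 159 bases. Hnrnpr, the other member with a transcript under 300 bases (292), had a ratio of highest to lowest control of 1.25. Of its neighbours, Rufy1 stood between 10.6 and 15.2 FPKM, and Cby3, between 0 and 0.470 FPKM, was too low to compare. Whether short transcripts have a part in the Hnrnph1 values was not tested.

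Its closest relatives, which bind similar G-rich sequence, were far more even. Hnrnph2 stood at 62.9, 64.7 and 67.6 FPKM in controls and at 64.4, 64.4 and 72.5 FPKM in nulls. Hnrnpf ran from 123 to 149 FPKM in controls and from 120.4 to 149.8 FPKM in nulls. Their groups overlapped, and Hnrnph1 went from 3.06 times Hnrnpf in control 2 to 35.4 times in control 3. Hnrnph3, which lacks part of the RNA-binding region of the other family members, stood at 69.5, 64.6 and 86.3 FPKM in controls and at 56.8, 67.1 and 64.6 FPKM in nulls. Control 3 was its highest library and null 1 its lowest, the groups overlapped, and the difference of -0.22 (SE 0.128) did not pass (limma, BH-adjusted p = 0.764).

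**Figure D2:**
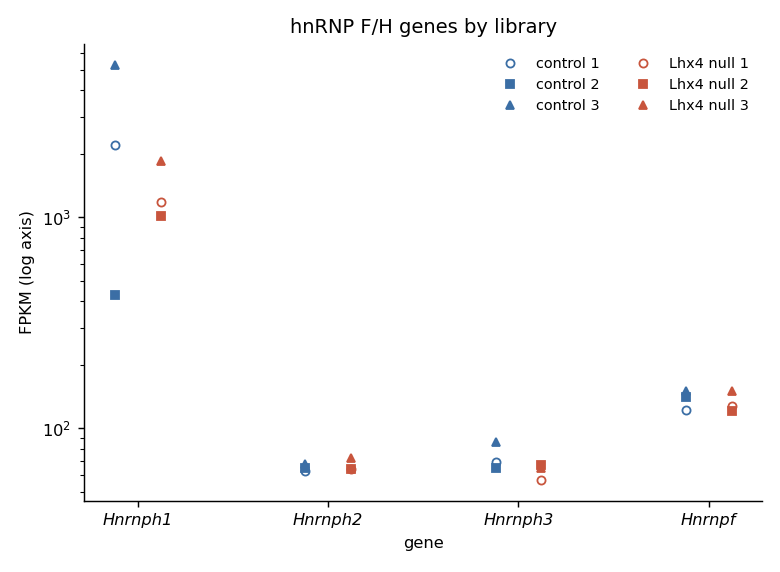
FPKM (log axis) of the 4 hnRNP F/H genes in each library, with controls in blue, Lhx4 nulls in red and the symbol giving the library number. Hnrnph1 spreads over 12.3-fold in controls, while Hnrnph2, Hnrnph3 and Hnrnpf stay between 56.8 and 149.8 FPKM in all 6 libraries.

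Loss of Lhx4 left the set without a call. None of the 31 members passed at a BH-adjusted p under 0.05 (limma), where 0.0152% of all tested rows did (2 of 13175). None had an unadjusted p under 0.05, against 6.81% of all rows. With the replicate number as a block the counts were again 0 and 0, against 0.0911% and 12.2%. Bhlhe23, which the study reported among its most lowered genes, did not pass here either. The log2 difference of Bhlhe23 was -2.46 (limma, unadjusted p = 0.00917, and 2.1e-04 with the block). After adjustment these became 0.661 and 0.0992 (limma, BH-adjusted p). The log2 differences had a median of -0.0057 over the members and 0.0033 over all rows, with 15 members higher and 16 lower in nulls. Apart from Hnrnph1, every 95% interval lay between -0.51 and 0.46, that is 0.700 to 1.38-fold, so that larger differences fall outside the intervals of these 30 genes.

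The groups did not overlap for 2 members, against 13.4% of all rows, and in both the nulls were lower, which held for 5.53% of all rows. Hnrnpl, which binds CA repeats, had the smallest p of the set. It stood at 226, 213 and 209.9 FPKM in controls and at 185, 204 and 188 FPKM in nulls. Each null was below each control, with means of 217 ± 8.75 and 192 ± 9.88 FPKM (SD, n = 3 each), but the difference of -0.17 (SE 0.0895) missed the threshold and gave a BH-adjusted p of 0.749 in limma (0.451 when blocked by replicate number).

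Hnrnpd, also known as AUF1, binds AU-rich elements and promotes decay of the transcripts that hold them. Its FPKM was 153, 155 and 160.5 in controls and 142, 141 and 152 in nulls. Null 3 came close to control 1, and the difference was -0.11 (SE 0.0826, limma, BH-adjusted p = 0.818). Its paralogue Hnrnpdl lies 54638 bases away on chromosome 5 and had values of 168, 166 and 219.9 FPKM in controls and 170.3, 177 and 230.4 FPKM in nulls. In Hnrnpdl the libraries numbered 3 were high in both groups and the groups overlapped. The ratio of Hnrnpd to Hnrnpdl was 0.730 in control 3 and 0.660 in null 3, against 0.795 to 0.932 in the other 4 libraries.

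Among the A/B proteins, which bind UAG-containing sequence and often repress splicing, Hnrnpa2b1 was the most abundant. Its values were 986, 939 and 1210.2 FPKM in controls and 975, 974 and 1117 FPKM in nulls. Hnrnpa1 had values of 387, 407 and 462 FPKM in controls and 403, 377 and 545 FPKM in nulls. In both genes the library numbered 3 was the highest of its group and the groups overlapped, with differences of -0.03 and 0.06, either of which took the other sign under some scalings or subsets of libraries. Hnrnpa3 was 305, 327 and 422 FPKM in controls and 360.3, 314 and 431 FPKM in nulls. Hnrnpa0, which also binds AU-rich elements, was 185, 221 and 275 FPKM in controls and 203, 188 and 287 FPKM in nulls. These again peaked in the libraries numbered 3, and the genotype differences were 0.07 for Hnrnpa3 and -0.01 for Hnrnpa0, the latter positive when the libraries were rescaled.

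Hnrnpk, a KH-domain protein that binds C-rich sequence, stood at 404, 423 and 484 FPKM in controls and 456, 417 and 515 FPKM in nulls. Hnrnpll, the paralogue of Hnrnpl known for the splicing of Ptprc in mouse T cells, stood at 34.2, 34.0 and 41.1 FPKM in controls and 36.5, 37.2 and 43.2 FPKM in nulls. Hnrnpr, a relative of Syncrip, stood at 64.9, 75.1 and 81.1 FPKM in controls and 77.3, 69.5 and 91.4 FPKM in nulls. For all 3 the library numbered 3 was highest in each group and the groups overlapped, with differences of 0.08, 0.10 and 0.10. Hnrnpl and Hnrnpll leaned in opposite directions, so their ratio was 6.62, 6.26 and 5.11 in controls and 5.08, 5.48 and 4.36 in nulls, still with overlap. The remaining hnRNP genes (Hnrnpab, Hnrnpc, Hnrnpm, Hnrnpu, Hnrnpul1 and Hnrnpul2) had differences between -0.08 and 0.03.

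SR genes varied as little between genotypes, with differences from -0.12 to 0.12. Srsf5, the most abundant, was 364, 372 and 437 FPKM in controls and 377, 365 and 442 FPKM in nulls. Srsf10, a splicing repressor when dephosphorylated in mitosis and heat shock, was 84.7, 83.8 and 99.3 FPKM in controls and 93.8, 89.1 and 108 FPKM in nulls. Its difference of 0.12 (SE 0.111) was the highest of the 31 and did not pass (limma, BH-adjusted p = 0.839). Srsf9 was 62.4, 59.2 and 68.3 FPKM in controls and 53.1, 59.0 and 62.3 FPKM in nulls. Srsf4 was 28.1, 29.2 and 31.8 FPKM in controls and 28.3, 25.2 and 29.6 FPKM in nulls. Both genes had a lower mean in nulls, with log2 differences of -0.12 and -0.10, and their groups overlapped.

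Srsf11 was 129, 116 and 155 FPKM in controls and 118, 125 and 129 FPKM in nulls, with control 3 above all others. Srsf7, which takes part in mRNA export as well as splicing, was 63.8, 66.7 and 64.6 FPKM in controls and 65.1, 63.1 and 75.7 FPKM in nulls, with null 3 above all others. Their differences were -0.09 (SE 0.119) and 0.06 (SE 0.0941). Srsf1, Srsf2, Srsf3, Srsf6 and Srsf12 had differences between -0.03 and 0.05. Of the 11 SR genes 9 have a transcript annotated to undergo nonsense-mediated decay, against 10 of 20 hnRNP genes, and gene-level FPKM pools such transcripts with the productive ones.

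**Figure D3:**
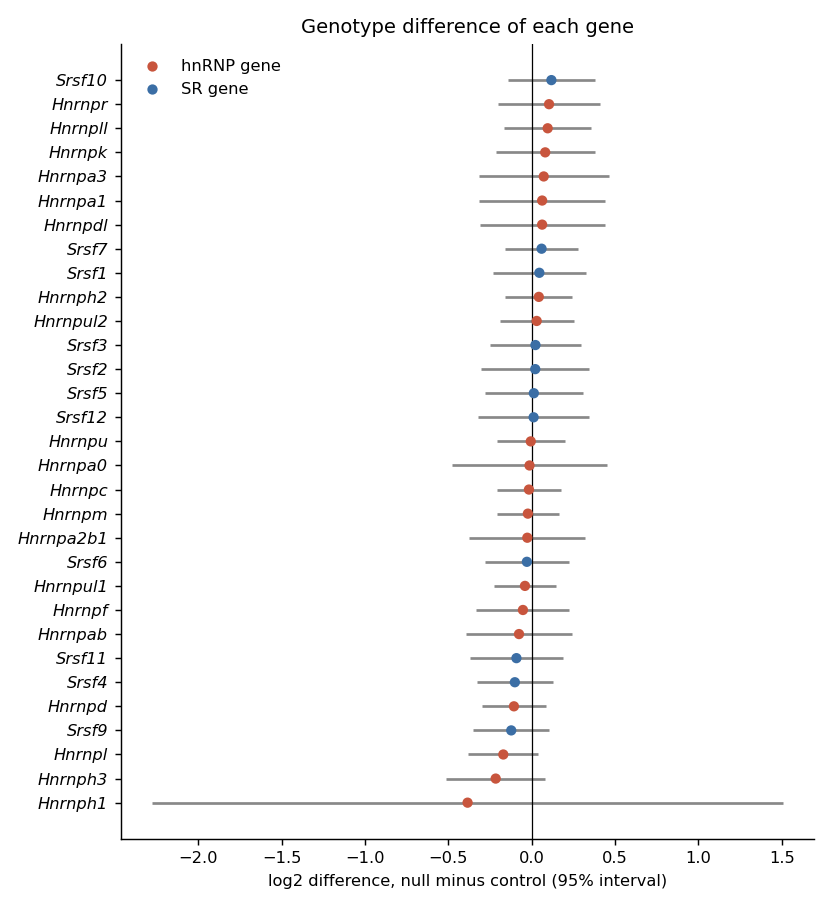
Log2 difference in FPKM between Lhx4 null and control (limma, points) with its 95% interval (lines) for each of the 31 genes, with hnRNP genes in red and SR genes in blue. Every interval includes 0, and Hnrnph1 has an interval from -2.28 to 1.51 while all others lie between -0.51 and 0.46.

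In the median over the members, the libraries numbered 3 differed more from the others of their group than nulls did from controls. They were above the mean of the others in both groups in 23 of 31 members and below it in both in 4. Some members, such as Hnrnpl and Hnrnpd, differed more between genotypes. In 21 of 31 members (67.7%), 13 hnRNP and 8 SR, the library numbered 3 was above both others of its group in controls and in nulls, which held for 25.9% of all tested rows and for 36.7% of the 1479 rows averaging 50 FPKM or more. In 2 members, Hnrnpu and Srsf12, it was below both others in both groups, against 25.2% of all rows. Control 3 exceeded the mean of controls 1 and 2 by 0.22 (log2, median over the members), and null 3 exceeded the mean of nulls 1 and 2 by 0.23, against -0.03 and 0.03 over all rows. Summed over the members without Hnrnph1, FPKM was 5478, 5581 and 6504 in controls and 5594, 5454 and 6527 in nulls, so that both libraries numbered 3 lay above the other 4.

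All 7 of the A/B and D proteins (Hnrnpa0, Hnrnpa1, Hnrnpa2b1, Hnrnpa3, Hnrnpab, Hnrnpd and Hnrnpdl) were among the 21, although Hnrnpd was below both others when libraries were rescaled to the same total, and Hnrnpd and Hnrnpa2b1 were not above both others after quantile normalization. Hnrnpa0 was higher in control 3 by 0.44 and in null 3 by 0.55, Hnrnpdl by 0.40 and 0.41, and Hnrnpa3 by 0.42 and 0.36. Hnrnpc, Hnrnpm, Hnrnpl and Hnrnpul1 differed by less than 0.10 in either group. Srsf12 went the other way, by -0.27 and -0.32, so the ratio of Srsf10 to Srsf12 was 13.5 in control 3 and 14.8 in null 3 against 8.95 to 10.3 in the other 4 libraries. No test was made, since mice of a group carry no label but their number.

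Both the count and the size depended on scaling. The count remained at 21 after rescaling to the same 75th percentile, was 17 after rescaling to the same total (15.8% of all rows) and 16 after quantile normalization (24.9% of all rows). Members below both others in both groups numbered 1, 7 and 3 under these scalings, against 25.9%, 39.4% and 27.6% of all rows. The members' median differences of control 3 and null 3 were 0.24 and 0.20 at the same 75th percentile, 0.13 and 0.086 at the same total and 0.17 and 0.087 with quantile normalization, where those of all rows were -0.0060 and 0.011, -0.11 and -0.095, and -0.010 and -0.014. Summed FPKM was itself higher in control 3 and null 3 (429668 and 428693) than in the other 4 libraries (386567 to 411204). The members' differences ran with the higher progenitor and lower rod markers given above, whose medians were 1.20 and -1.28 in control 3 and 1.01 and -0.72 in null 3, and the part of cell composition in them was not tested. In bulk retina, more cells of a type and more RNA per cell cannot be told apart.

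**Figure D4:**
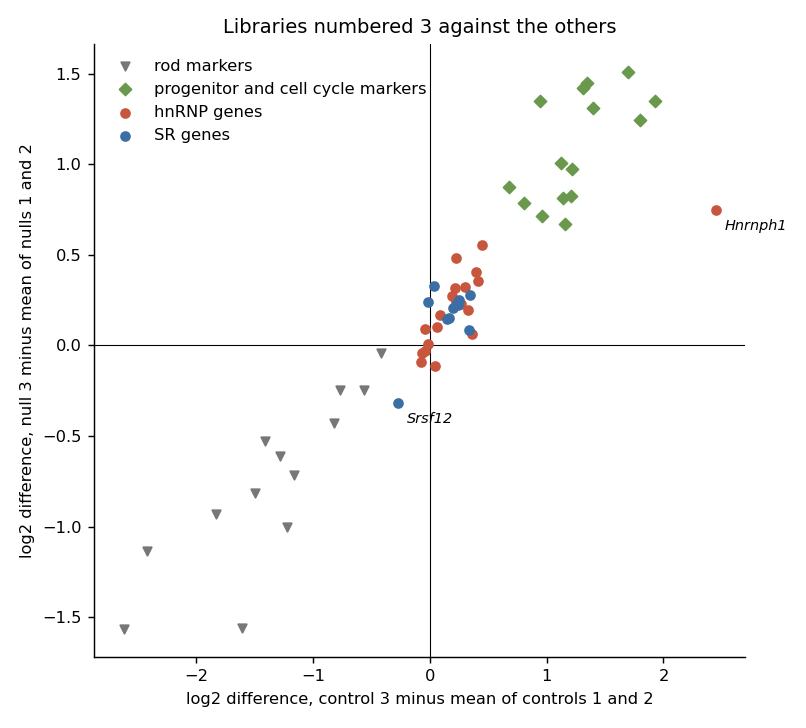
Log2 difference of control 3 from the mean of controls 1 and 2 (x axis) and of null 3 from the mean of nulls 1 and 2 (y axis) for hnRNP genes (red), SR genes (blue), progenitor and cell cycle markers (green) and rod markers (grey). Most of the 31 genes lie in the upper right near 0.22 and 0.23, between the 2 marker lists, with Hnrnph1 at 2.45 and 0.75 and Srsf12 at -0.27 and -0.32.

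Other genes of the splicing machinery gave no call either (limma, 0 at a BH-adjusted p under 0.05 in each list, also with the block). At an unadjusted p under 0.05, where 4.09% of all rows were higher and 2.72% lower in nulls, the 12 hnRNP proteins with other symbols had 1 higher and 0 lower, with a median difference of -0.10. Syncrip, an mRNA-binding relative of Hnrnpr, was 39.8, 46.4 and 45.2 FPKM in controls and 55.7, 47.2 and 58.5 FPKM in nulls, and Ralyl differed by 0.28. SR-related proteins, SR kinases and importers had 1 higher and 1 lower of 22, with a median of -0.05. Tnpo1, an importer of hnRNP A proteins, was 56.0, 68.2 and 62.0 FPKM in controls and 77.7, 69.2 and 85.8 FPKM in nulls, and Clk3, a kinase of SR proteins, differed by -0.24. In Syncrip, Ralyl, Tnpo1 and Clk3 the groups did not overlap, as in 13.4% of all rows, and their BH-adjusted p were 0.701, 0.725, 0.689 and 0.686 (limma).

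At an unadjusted p under 0.05 (limma), met by 4.09% of all rows higher and 2.72% lower, core spliceosome genes had 0 higher and 1 lower of 33. Their differences had a median of -0.09 and 27 of 33 were below 0, against 6475 of 13175 over all rows. Snrpd2, a Sm protein, differed by -0.23 and Sf3a2, a subunit of the U2 particle, by -0.19. At the same threshold 0 of 10 genes of nonsense-mediated decay were higher and 2 lower, with a median of -0.18 over the 10. Upf2 differed by -0.19 and Upf3a by -0.21, and neither passed (limma, BH-adjusted p = 0.725 and 0.715). Of the nuclear-retained RNAs listed, Snhg11 was tested and differed by -0.06. Malat1, Neat1, Meg3, Miat and Kcnq1ot1 had no row under these names among the FPKM values. The library numbered 3 was above both others in both groups for 25.9% of all rows and 36.7% of rows averaging 50 FPKM or more. That held for 12 of 33 core spliceosome genes (36.4%), 4 of 12 hnRNP proteins with other symbols and 4 of 22 SR-related genes. It held for 6 of 25 neuronal and tissue splicing regulators and 0 of 10 genes of nonsense-mediated decay.

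Of 25 neuronal and tissue splicing regulators, 5 were higher and 1 lower at an unadjusted p under 0.05 (limma), against 4.09% and 2.72% of all rows, and 16 differences were above 0, with a median of 0.09. Elavl2, a neuronal RNA-binding protein, was 6.97, 7.48 and 8.60 FPKM in controls and 10.8, 9.35 and 11.4 FPKM in nulls. Rbfox1, which binds GCAUG, was 14.1, 14.3 and 14.0 FPKM in controls and 18.8, 16.5 and 17.4 FPKM in nulls. Each null lay above each control in both genes, while in 13.4% of all rows the groups did not overlap in either direction. The differences were 0.43 (SE 0.123) and 0.30 (SE 0.0878), and neither passed (limma, BH-adjusted p = 0.661 for each). Rbfox2, Rbfox3, Celf2 and Elavl4 were also higher without overlap, and Msi1 lower. The gene lower at an unadjusted p under 0.05 was Khdrbs2, which differed by -0.85 with overlapping groups (limma, BH-adjusted p = 0.701). The ratio of Ptbp2 to Ptbp1, the neuronal and the general form of the polypyrimidine tract binding protein, was 2.76, 2.72 and 3.16 in controls and 2.97, 2.82 and 2.95 in nulls, with the nulls inside the control range.

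Markers of cell classes are given beside these values. With limma none passed in any list, apart from 1 cone marker that was lower with the block. At an unadjusted p under 0.05 (limma), 4.09% of all rows were higher and 2.72% lower in nulls. Higher were 1 of 9 cone, 1 of 10 amacrine and horizontal, 1 of 8 ganglion cell and 1 of 10 blood, vessel and microglia markers. Lower were 1 of 9 cone and 2 of 12 bipolar markers. The median difference between null and control was -0.06 for progenitor, -0.18 for rod, -0.18 for bipolar, 0.15 for cone, 0.10 for amacrine and horizontal, 0.10 for ganglion cell and 0.13 for Muller glia markers. For pigment epithelium it was -0.0032, for lens 0.67 and for blood, vessel and microglia 0.30, and the summed lens level lay between 2.71 and 20.2 FPKM. The part of these differences in the values of the splicing regulators was not tested.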

How the data were processed

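RNA-seq was made from whole retinas of single mice, dissected free of pigment epithelium, with TruSeq libraries read as paired ends. The deposited values are FPKM, which the authors made with TopHat2 and Cufflinks on GRCm38, per the submitters' processing notes. Tool versions, the annotation and strand handling were not given in the sources used here. Cufflinks divides fragments among overlapping and near-identical transcripts, so 12 members with an opposite-strand overlap and 6 with a same-strand overlap in GENCODE M21 are less certain. Whole reads could not be recovered from low values (at most 7.83% of low rows shared a ratio between any 2 libraries), so the reads behind a given value are not known, no count test was run, and precision rests on the spread between 3 mice per group.

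Rows averaging 0.5 FPKM or more (13175 of 21995) were fitted with limma 3.58.1 in R 4.3.3 on log2(FPKM + 0.5), with a trend, genotype alone, two-sided, and Benjamini-Hochberg (BH) adjustment over all tested rows. The added 0.5 shrinks fold changes of low genes. Members, lists and alternatives were chosen with earlier results of these data known. Given in every library are Hnrnph1, the 6 members with the smallest p in each direction, the 6 with the highest mean, the 6 with the widest control spread and the 4 that differ most in the libraries numbered 3, and, of each splicing list, the 2 genes with the smallest p are named. The remaining members are summarised, with a few further values of members and list genes chosen after seeing them. Rows sharing a repeated name (172) include no member. The labels number each group 1 to 3, and deviations of same-numbered libraries correlated at 0.394, 0.260 and 0.675, so the number was taken to pair libraries, although control 1 correlated with null 2 at 0.377, and control 2 with null 1 (0.269) slightly more than with null 2. Upstream windows came from RefSeq on GRCm38.p6. The alternatives changed the pseudocount (0.1 or 1), the filter (none, or 2 FPKM), the scaling (75th percentile, total or quantile), the trend, the library weights (array weights), the replicate block, or the libraries used (both numbered 3 left out, or each in turn).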

Additional observations from a re-analysis of the deposited data

How the results depend on the processing

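No member passed at a BH-adjusted p under 0.05 in any of 17 alternatives (527 member fits with limma). The smallest adjusted p was 0.398, for Hnrnpl with array weights, and the smallest unadjusted p was 0.0200. With the replicate block no member or splicing list gained or lost a call, while the count over all rows went from 2 to 12, and it was 5 without both libraries numbered 3 and 0 to 3 with single libraries left out. Members lower at an unadjusted p under 0.05 numbered 0 to 1 when single libraries were left out (1 without control 2). The members' median difference was 0.069 with quantile normalization and -0.072 to 0.046 with single libraries left out (lowest without null 3), and that of hnRNP proteins with other symbols was -5.6e-04 with quantile normalization.

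Small differences changed sign without passing. Hnrnpa0 was 0.0091 at the same 75th percentile, 0.028 at the same total and 0.075 with quantile normalization, and Hnrnpa2b1 was 0.015 at the same total, 0.052 with quantile normalization, 0.0081 with array weights and 0.018 without both libraries numbered 3. Without those libraries Hnrnpa1 was -0.025, Srsf7 -0.024 and Hnrnph1 0.18, and with array weights Hnrnph1 was 0.21. With single libraries left out, the range was -0.20 to 0.13 for Hnrnpa0, -0.099 to 0.17 for Hnrnpa1, -0.099 to 0.084 for Hnrnpa2b1, -0.047 to 0.21 for Hnrnpa3, -0.073 to 0.20 for Hnrnpdl, -1.38 to 0.43 for Hnrnph1, -0.014 to 0.071 for Hnrnph2, -0.0017 to 0.19 for Hnrnpr, -0.19 to 0.021 for Srsf11, -0.071 to 0.095 for Srsf5, -0.020 to 0.11 for Srsf7 and -0.15 to 0.059 for Snhg11. The causes were not tested. With 3 mice a group, the interval of a gene gives the differences that its values leave possible, and it is no limit of detection.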

Other observations

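Hnrnph1 was not alone among abundant genes in its spread between controls. Of 1479 rows averaging 50 FPKM or more, those next to it by the ratio of the highest to the lowest control, named after their values were seen, were Ece1, Trnp1 and mt-Nd3, at 9.84, 7.01 and 6.88 times. Ece1, which activates endothelins, stood at 309.5, 185 and 31.5 FPKM in controls and 744, 502 and 177 FPKM in nulls. In Ece1 and Trnp1, control 3 and null 3 were the lowest of their groups.

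The mitochondrial transcripts mt-Nd3 and mt-Atp8 ran the other way. For mt-Nd3 the FPKM was 73.1, 82.8 and 503 in controls and 189.6, 124 and 452 in nulls, and for mt-Atp8 it was 4259, 6017 and 17608 in controls and 12863, 8249 and 16030.2 in nulls. Both peaked in the libraries numbered 3, as Hnrnph1 did, but control 2 exceeded control 1 in both, whereas Hnrnph1 was lower in control 2 than in control 1. The shortest annotated transcript was 172 bases for Ece1, 204 for mt-Atp8 and 348 for mt-Nd3, and the part of transcript length was not tested.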
